A study of Mus musculus with 12 samples.

Results

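Hmgcs1, Idi1, Fdps, Fdft1, Sqle, Lss and Insig1 are 7 genes of cholesterol synthesis and its feedback control, and they were taken by symbol from the 17536 genes measured in superficial zone (SFZ) and deep zone (DZ) chondrocytes. All 7 were measured in all 12 libraries and passed the filter on low values in every comparison. None of the 7 encodes a receptor for cholesterol uptake, so they are described here as synthesis and feedback genes.

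Cells came from 5-day-old mice on a C57BL/6J background, with 3 libraries for each genotype in each zone. R3-Cntl mice were Runx3 fl/fl, and R3-cKO mice were Col2a1-Cre; Runx3 fl/fl, in which Cre expressed from Col2a1 sequences acts in chondrocytes. Both genotypes carried the floxed Runx3 alleles. SFZ cells were those released early by enzyme digestion of the joint surface, and DZ cells were released by further digestion of what remained. The paper states that the released cells were then grown as a monolayer in medium with fetal bovine serum. Values are FPKM, fragments scaled to transcript length and library depth, and they summed to between 392241 and 429213 FPKM in each library. The unit was inferred from the values, and the number of reads behind each value is unknown.

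The targeted gene did not separate the genotypes. In SFZ cells, FPKM of Runx3 were 10.7, 5.98 and 6.65 for R3-Cntl replicates 1, 2 and 3, and 11.8, 9.07 and 3.42 for those labelled R3-cKO. Among DZ cells its FPKM were 12.7, 12.7 and 7.66 for R3-Cntl, and 16.0, 12.7 and 8.14 for those labelled R3-cKO. The groups overlapped in both zones, and a value for the whole gene does not show whether the floxed part was lost. Prg4, a superficial zone gene looked up after the other results were known, was at 22.2, 8.38 and 7.13 FPKM in R3-Cntl SFZ and at 6.95, 2.47 and 2.13 FPKM in R3-cKO SFZ. These groups did not overlap (limma unadjusted p = 0.0307, adjusted p = 0.9997), as was the case for 2.4% of genes. Among DZ libraries Prg4 was at 1.39, 1.22 and 1.47 FPKM in R3-Cntl and at 5.72, 1.32 and 2.14 FPKM in R3-cKO, where the groups overlapped and the mean was higher in R3-cKO. Directions by genotype below are those of the labels.

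Cholesterol is built from acetyl-CoA through mevalonate, isoprenoid diphosphates, squalene and lanosterol. The enzymes are transcribed under SREBP-2, the product of Srebf2, which is held in the endoplasmic reticulum with its escort SCAP by the INSIG proteins when sterols are plentiful. Isoprenoids from the same route also feed protein prenylation, dolichol and ubiquinone. In cartilage, sterols are known to be needed for hedgehog signalling in the growth plate.

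In mm9, 6 of the 7 members were found by name, each on its own chromosome, and Hmgcs1 was not. Idi1 was annotated at chr13:8884852-8891641 on the forward strand, Sqle at chr15:59146632-59162747 forward, Lss at chr10:75994333-76019883 forward and Insig1 at chr5:28397952-28405201 forward. Fdft1 was annotated at chr14:63763990-63796630 and Fdps at chr3:88897514-88905881, both on the reverse strand. Fdft1 overlapped Ctsb on the other strand by 769 bases and Lss overlapped a long noncoding RNA gene on the other strand. Fdps overlapped a U6 small nuclear RNA gene on its own strand by 104 bases. Whether reads were assigned by strand is not given in the sources used here.

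Promoters of Hmgcs1, Idi1, Lss and Insig1 were held in the RefSeq table, which covers 4 of the 7 genes. The 250 bases before the start were searched on both strands for the sterol response element letters TCACNCCAC and their looser form TCACNCNA, the NF-Y letters CCAAT, the Sp1 letters GGGCGG and the Runx letters TGTGGT and TGCGGT. TCACNCCAC was found in 1 of the 4 promoters, Hmgcs1, and in 1.05% of all 32851 promoters. TCACNCNA was found at the same place of Hmgcs1, where the matches overlap, and in 9.10% of all promoters. CCAAT was present in 4 of 4 against 33.8% of all promoters, and GGGCGG in 4 of 4 against 32.7%. TGTGGT was found in Lss alone, against 14.0% of all promoters, and TGCGGT in 0 of 4, against 5.10%. A match says that these letters are in the window and does not show a binding site. Hmgcs1 is shown because it held the sterol response element letters, 137 to 129 bases before the start, and Idi1 because its zone difference passed the test below. Both are forward strand sequences of GRCm38.p6, at chr13:119690101-119690350 for Hmgcs1 and chr13:8885356-8885605 for Idi1, written 5′ to 3′ with TCACNCCAC and CCAAT matches on either strand in capitals.
Hmgcs1: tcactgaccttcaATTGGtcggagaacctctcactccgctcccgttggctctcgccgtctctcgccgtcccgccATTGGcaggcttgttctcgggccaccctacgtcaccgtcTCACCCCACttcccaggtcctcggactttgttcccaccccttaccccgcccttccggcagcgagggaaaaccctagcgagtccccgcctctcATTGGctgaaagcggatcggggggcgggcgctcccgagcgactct
Idi1: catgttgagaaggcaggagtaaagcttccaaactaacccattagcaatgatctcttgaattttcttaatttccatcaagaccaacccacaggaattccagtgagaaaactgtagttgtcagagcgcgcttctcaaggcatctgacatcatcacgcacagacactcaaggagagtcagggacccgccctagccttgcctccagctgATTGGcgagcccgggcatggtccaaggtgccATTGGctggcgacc

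Hmgcs1 and Idi1 act in the early part of the route, before farnesyl diphosphate. Hmgcs1, the cytosolic synthase that makes HMG-CoA, was at 120.5, 94.2 and 37.3 FPKM in libraries 1, 2 and 3 of the R3-Cntl SFZ, and at 119.3, 59.0 and 86.0 FPKM in R3-cKO SFZ. In the DZ it was at 63.3, 43.3 and 32.7 FPKM in R3-Cntl and at 61.7, 40.3 and 24.1 FPKM in R3-cKO. Library 1 was the highest of its group in all 4 groups, and the zones overlapped in both genotypes, through SFZ library 3 in R3-Cntl and SFZ library 2 in R3-cKO. Idi1, the isomerase that turns isopentenyl diphosphate into dimethylallyl diphosphate, was at 51.4, 52.0 and 20.6 FPKM in R3-Cntl SFZ and at 52.9, 41.0 and 35.1 FPKM in R3-cKO SFZ. In the DZ it was at 22.9, 16.0 and 9.96 FPKM in R3-Cntl and at 29.4, 21.1 and 8.23 FPKM in R3-cKO. All R3-cKO SFZ libraries lay above all R3-cKO DZ libraries for Idi1, while in R3-Cntl SFZ library 3 lay below DZ library 1.

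Fdps and Fdft1 stand on either side of the branch to the nonsterol isoprenoids. Fdps, which makes farnesyl diphosphate, was at 214.5, 120.2 and 48.6 FPKM in R3-Cntl SFZ and at 213.9, 93.5 and 83.8 FPKM in R3-cKO SFZ. In the DZ Fdps was at 154.8, 65.6 and 33.6 FPKM in R3-Cntl and at 155.8, 65.3 and 39.6 FPKM in R3-cKO. It was high in library 1 of every group, and both DZ libraries of number 1 exceeded 4 of the 6 SFZ libraries. Fdft1, squalene synthase, was at 36.8, 26.9 and 13.7 FPKM in R3-Cntl SFZ and at 38.2, 19.0 and 26.7 FPKM in R3-cKO SFZ. In the DZ Fdft1 was at 26.5, 15.1 and 10.5 FPKM in R3-Cntl and at 25.6, 13.5 and 11.1 FPKM in R3-cKO. Zones overlapped for both genes in both genotypes.

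Sqle and Lss carry squalene to lanosterol. Sqle, the squalene epoxidase, was at 74.7, 56.2 and 30.2 FPKM in R3-Cntl SFZ and at 72.2, 41.4 and 51.7 FPKM in R3-cKO SFZ. In the DZ Sqle was at 53.5, 33.7 and 20.2 FPKM in R3-Cntl and at 53.4, 32.0 and 18.5 FPKM in R3-cKO. Lss, lanosterol synthase, had the lowest level of the 7 genes in all 12 libraries. It was at 24.9, 13.7 and 5.85 FPKM in R3-Cntl SFZ, 26.2, 10.02 and 11.1 FPKM in R3-cKO SFZ, 14.9, 8.10 and 4.86 FPKM in R3-Cntl DZ and 16.3, 7.51 and 4.90 FPKM in R3-cKO DZ. Both genes were highest in library 1 of each group, and their zones overlapped in both genotypes.

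Insig1 encodes the sterol-regulated INSIG protein of the feedback loop and spread most widely of the 7 genes. It was at 146.3, 57.2 and 21.6 FPKM in R3-Cntl SFZ and at 190.6, 29.3 and 70.3 FPKM in R3-cKO SFZ. In the DZ it was at 73.8, 30.7 and 16.1 FPKM in R3-Cntl and at 90.7, 22.5 and 13.9 FPKM in R3-cKO. Its highest library held 13.7 times the FPKM of its lowest, against 3.63 times for Fdft1, 4.05 for Sqle, 4.99 for Hmgcs1, 5.39 for Lss, 6.38 for Fdps and 6.43 for Idi1.

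**Figure D1:**
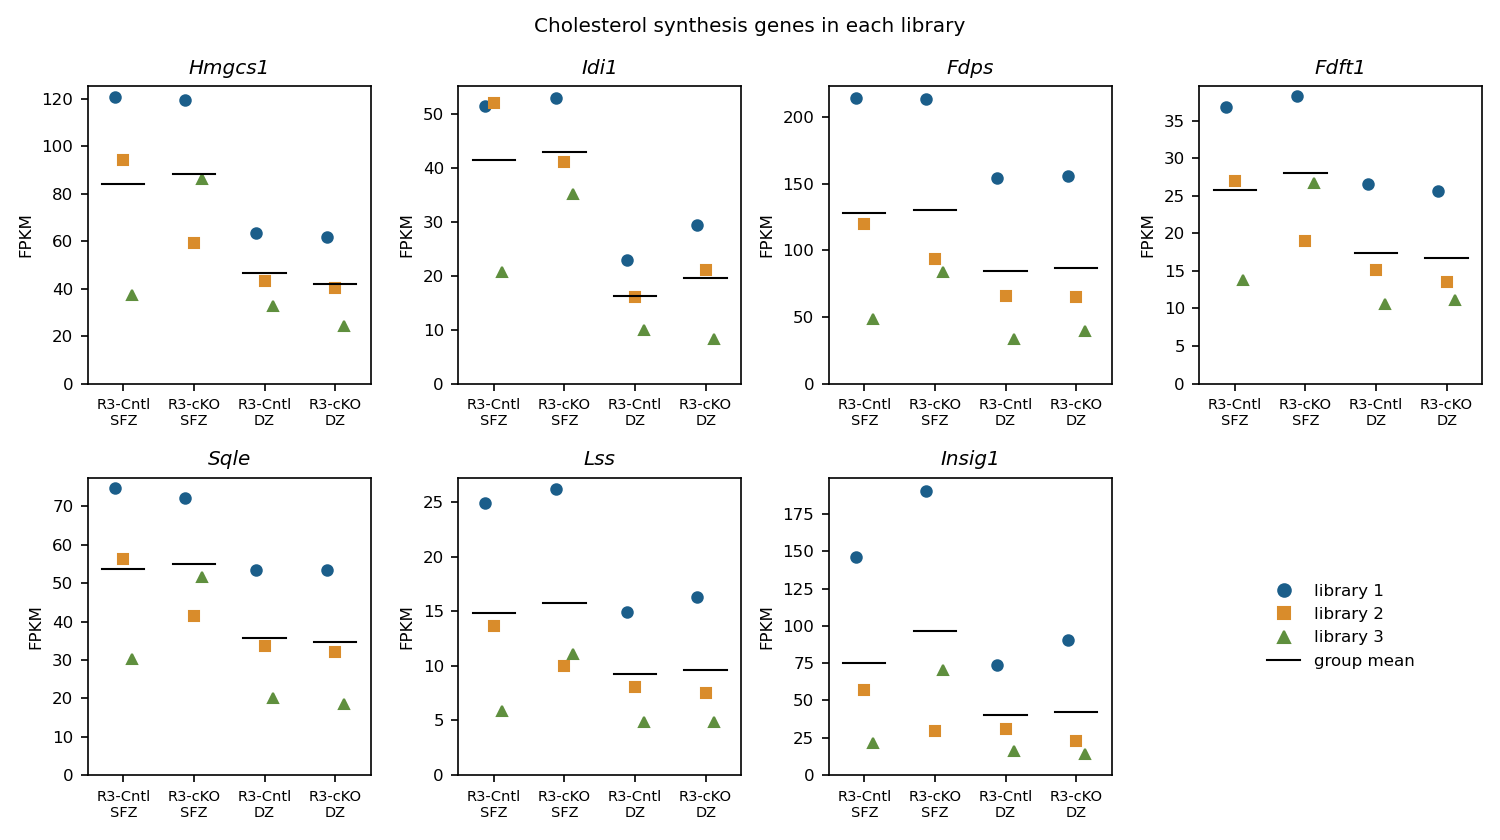
FPKM of the 7 genes in each of 12 libraries by genotype and zone, with circles, squares and triangles for libraries 1, 2 and 3 and a line at the mean of each group of 3. Library 1 was the highest of its group in 27 of 28 combinations of gene and group, the exception being Idi1 in R3-Cntl SFZ.

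Levels per transcript length ran from Fdps at 129.1 ± 69.8 FPKM (SD, n = 6) in the SFZ and 85.8 ± 55.4 FPKM in the DZ down to Lss at 15.3 ± 8.35 and 9.43 ± 4.98 FPKM. Fdps was the highest of the 7 genes in 11 of 12 libraries, and Hmgcs1 was highest in the other. Hmgcs1, at 86.0 ± 33.1 FPKM in the SFZ and 44.2 ± 15.6 in the DZ, and Insig1, at 85.9 ± 67.9 and 41.3 ± 32.7, did not differ beyond their spread. Sqle followed at 54.4 ± 17.3 FPKM in the SFZ and 35.2 ± 15.4 in the DZ. Idi1 stood at 42.2 ± 12.7 FPKM in the SFZ and 17.9 ± 8.09 in the DZ, and Fdft1 at 26.9 ± 9.62 and 17.1 ± 7.16.

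The zone comparison asked whether DZ cells differ from SFZ cells, with all 12 libraries in a model of genotype and zone. Idi1 was lower in the DZ, with a log2 fold change of FPKM + 1 of -1.25 (SE 0.32, 95% interval -1.96 to -0.54, limma adjusted p = 0.0190). An exact two-sided permutation test of its 6 against 6 libraries gave p = 0.00866, where the smallest possible value is 0.00216. Idi1 was the only member called, 1 of 7, against 23.2% of 11765 genes called in either direction and 18.9% called lower in the DZ. This fit treats the 12 libraries as independent, although the study names 3 individual mice of each genotype for both cell types. Which number is which mouse is not stated, and libraries of the same number did not all deviate together in R3-Cntl. With the number as a block all the same, 7 of 7 members were called lower in the DZ, against 34.7% of 11765 genes called, 27.5% lower and 7.17% higher, so the count of members called depends on the pairing. No member separated all 6 SFZ from all 6 DZ libraries (0 of 7, against 11.3% of genes). Without R3-Cntl SFZ library 2 the adjusted p of Idi1 was 0.0510, and the values without each other library lay between 0.0111 and 0.0420. Without R3-Cntl SFZ library 3 the count of members called was 2 of 7, as Hmgcs1 joined Idi1, against 2391 of 11721 genes.

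The other 6 members had negative log2 fold changes that did not pass in the fit without the block. With the number as a block all 7 members passed, with limma adjusted p-values up to 0.0254. Hmgcs1 was at -0.91 (SE 0.32, limma adjusted p = 0.0612) and Insig1 at -0.99 (SE 0.63, adjusted p = 0.277). Sqle was at -0.66 (SE 0.31), Fdps at -0.65 (SE 0.48), Fdft1 at -0.64 (SE 0.30) and Lss at -0.61 (SE 0.39), with limma adjusted p-values of 0.145, 0.351, 0.145 and 0.283. The exact permutation test, which ignores genotype and number, gave unadjusted p = 0.0303 for Hmgcs1. For the rest of these members it gave p-values from 0.0779 for Fdft1 to 0.216 for Fdps. The median over the 7 genes was -0.66, beside -0.14 over all genes tested. Quantile normalization moved the median of all genes to 0.034 and median-of-ratios size factors moved it to 0.0025, and the members' median was then -0.57 and -0.50. With these scalings the calls over all genes split into 1237 higher and 915 lower, or 1053 and 1088, against 506 and 2219 without them. Idi1 passed under both, with adjusted p-values of 0.0340 and 0.0345.

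Within each genotype the same libraries gave wider intervals. In R3-Cntl the log2 fold changes ran from -1.25 for Idi1 to -0.53 for Fdft1, and 0 of 7 members were called by limma, against 1.24% of 11336 genes. Idi1 alone had an unadjusted p under 0.05 there (limma, adjusted p = 0.127), 1 of 7 against 3102 of 11336 genes. The groups overlapped for all 7 genes (0 of 7, against 32.4% of genes). With the number as a block, 2 of 7 members were called in R3-Cntl, Idi1 and Sqle, against 7.33% of genes, and 7 of 7 had an unadjusted p under 0.05, against 30.5%. In R3-cKO the log2 fold changes ran from -1.24 for Idi1 and -1.23 for Insig1 to -0.68 for Fdps, and 0 of 7 were called, against 0.0176% of 11336 genes. Hmgcs1 and Idi1 had an unadjusted p under 0.05, 2 of 7 against 1602 of 11336 genes. Idi1 was the only member whose groups did not overlap, 1 of 7 against 21% of genes. An exact permutation test of 3 against 3 libraries cannot go below 0.1, the value Idi1 had in R3-cKO. These comparisons share their libraries with the pooled one and are no separate evidence.

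In R3-cKO the library number paired SFZ with DZ libraries. With the number as a block, 352 genes were called in place of 2, and still 0 of 7 members, against 3.11% of 11336 genes. At an unadjusted p under 0.05 the block gave 7 of 7 members, against 30% of genes, with limma adjusted p-values between 0.0671 and 0.128. The ratio of DZ to SFZ FPKM between same-number libraries ranged over the members from 0.197 to 0.774 in R3-cKO. In R3-Cntl, where libraries of the same number did not all deviate together, it ranged from 0.307 to 0.876. The members varied together, so their ratios are not separate evidence, and the same ratios were not computed for all genes. The median log2 fold change of all genes was also below 0, at -0.091 in R3-cKO and -0.17 in R3-Cntl. Insig1 had the lowest ratio in R3-cKO and Sqle the highest.

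**Figure D2:**
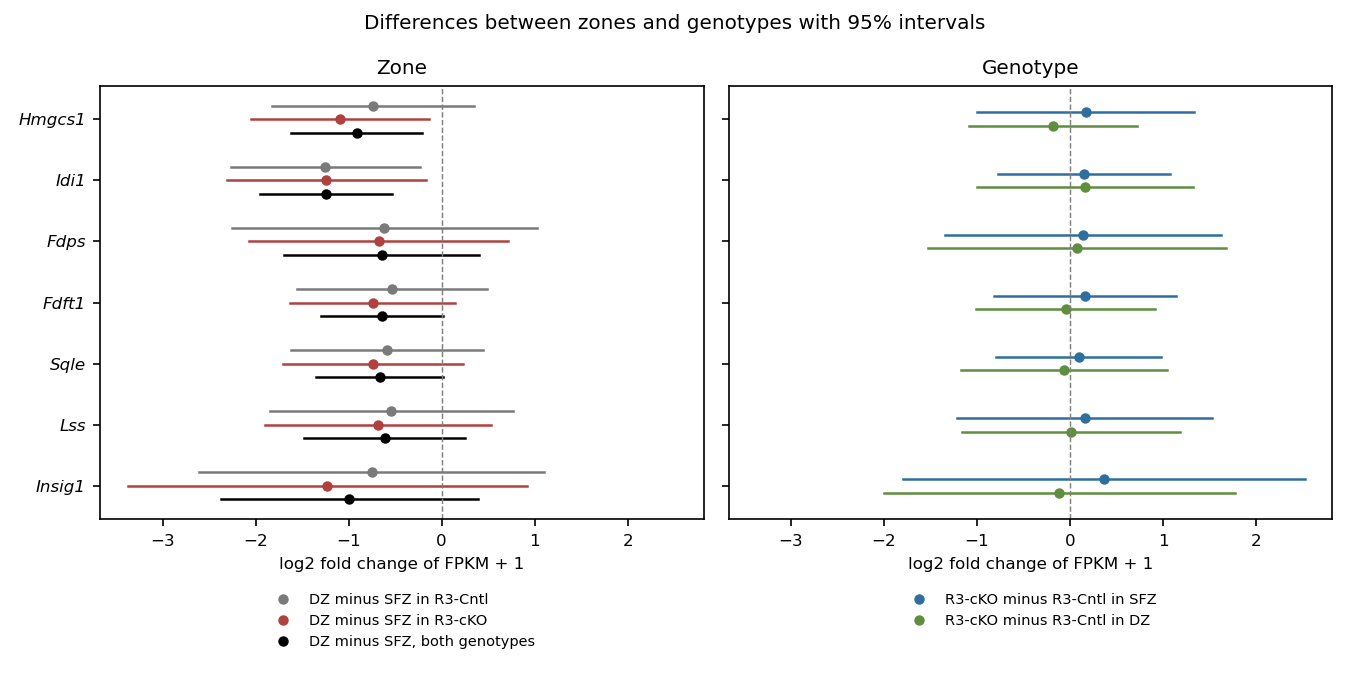
Log2 fold change of FPKM + 1 for each of the 7 genes, with dots for the limma estimate and lines for its 95% interval, for DZ minus SFZ on the left and R3-cKO minus R3-Cntl on the right. Every zone estimate lay below 0, between -1.25 and -0.53, while the genotype estimates lay between -0.19 and 0.36 and every one of their intervals included 0.

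Genotype comparisons asked whether the members differ between R3-Cntl and R3-cKO cells. In the SFZ the log2 fold changes were 0.36 for Insig1, 0.17 for Hmgcs1, 0.16 for Fdft1, 0.16 for Lss, 0.15 for Idi1, 0.14 for Fdps and 0.092 for Sqle. In the DZ they were 0.16 for Idi1, 0.077 for Fdps, 0.012 for Lss, -0.044 for Fdft1, -0.066 for Sqle, -0.11 for Insig1 and -0.19 for Hmgcs1. Limma called 0 of 7 members in the SFZ, against 0% of 11537 genes, and 0 of 7 in the DZ, against 0% of 11091 genes. At an unadjusted p under 0.05 there were 34 genes in the SFZ and 404 in the DZ, with 0 members in either. With 1 library left out these counts ranged from 12 to 1204 and from 211 to 773 genes, still with 0 members. Same-number DZ libraries were paired, and with the number as a block 1830 genes and 0 members had an unadjusted p under 0.05, while limma still called 0 genes. Groups overlapped for every member in both zones, 0 of 7 against 2.4% of genes in the SFZ and 8.03% in the DZ.

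The intervals set how large a genotype difference could have gone unseen. Idi1 had 95% intervals from -0.78 to 1.07 in the SFZ and from -0.997 to 1.32 in the DZ. Those of Insig1 ran from -1.79 to 2.52 and from -1.996 to 1.77. With the number as a block, the DZ intervals narrowed to -0.21 to 0.53 for Idi1 and -0.49 to 0.26 for Insig1. Leaving out R3-Cntl SFZ library 3 or R3-cKO SFZ library 1 turned all 7 SFZ estimates negative, between -0.43 and -0.22 for the former and between -0.32 and -0.0093 for the latter. In the DZ all 7 were positive without R3-Cntl library 1 or R3-cKO library 3 and negative without R3-Cntl library 3 or R3-cKO library 1. Tested as an interaction, the genotype effect in the DZ minus that in the SFZ was called for 0 of 7 members, against 0% of 11765 genes, of which 99 had an unadjusted p under 0.05 (36 to 714 with 1 library left out). The lowest unadjusted p of a member there was 0.605 (limma adjusted p = 0.999).

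Spread between libraries of the same group was large for the members. Their SD within groups on the log2 scale was 1.29 for Insig1, 0.98 for Fdps, 0.80 for Lss, 0.66 for Idi1, 0.65 for Hmgcs1, 0.63 for Sqle and 0.61 for Fdft1. The median of all genes tested was 0.22, and the 7 genes stood between the 91.4 and 99.4 percentile of all genes. Library number accounted for 81.0% of the variance over 12 libraries for Fdps, 75.2% for Lss, 68.0% for Insig1, 58.5% for Sqle, 57.2% for Fdft1, 40.6% for Hmgcs1 and 35.8% for Idi1, and the median of all genes was 30.4%. Zone accounted for 56.7% for Idi1, 42.0% for Hmgcs1 and 14.0% for Fdps, with a median over all genes of 22.2%. Genotype accounted for at most 0.866% for a member, which was Idi1, against a median of 2.17%. What libraries of the same number share is not stated in the labels, and the pattern by number was noticed after the values were seen.

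**Figure D3:**
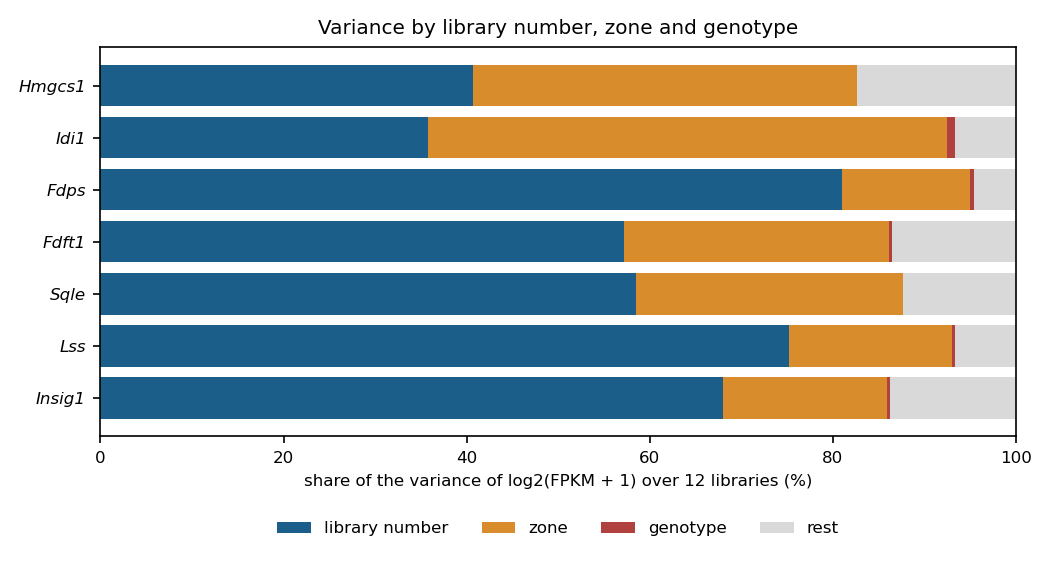
Share of the variance of log2(FPKM + 1) over 12 libraries that went with library number, zone and genotype for each of the 7 genes, in percent, with the rest in grey. Library number took the widest bar for 5 genes and zone for Idi1 and Hmgcs1, where number still took 35.8% and 40.6%. Number has more levels than zone or genotype, so its bar tends to be wider even with no effect.

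The 7 genes varied together. Pearson's r between pairs of members over the 12 libraries ranged from 0.80 to 0.99 with a median of 0.95 over 21 pairs, and from 0.81 to 0.99 with group means removed. Idi1 followed the mean of the other 6 least closely, at r = 0.88, and Sqle most closely, at r = 0.99. Idi1 was also set against the other 6 genes in the same library, which does not depend on scaling apart from the added 1. In this measure Idi1 differed between DZ and SFZ by -0.50 as a log2 value. Its libraries overlapped, at -0.66 to 0.30 in the SFZ and -1.10 to -0.19 in the DZ. The other 6 members differed by between -0.20 and 0.24 in the same measure, with Fdft1, the divisor of the ratio below, at 0.21. The ratio of Idi1 to Fdft1 FPKM was 1.40, 1.93, 1.503, 1.38, 2.15 and 1.31 in the 6 SFZ libraries and 0.862, 1.05, 0.946, 1.15, 1.56 and 0.740 in the 6 DZ libraries, in the order R3-Cntl then R3-cKO. R3-cKO DZ library 2 was the only DZ library above the lowest SFZ ratio.

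Genes outside the members with the most similar pattern over the 12 libraries were sought among 11352 genes averaging 1 FPKM or more. They were Cyp51, the lanosterol demethylase, at r = 0.995 (Spearman's rho 0.993), and Srebf2 at r = 0.994 (rho 0.993), followed by Pcyt2 of phosphatidylethanolamine synthesis at 0.981 and Mvd, mevalonate diphosphate decarboxylase, at 0.971. Acly, which makes cytosolic acetyl-CoA, followed at 0.969, then the sterol reductase Dhcr7 at 0.967, Gcat of threonine breakdown at 0.959, the sterol oxidase Msmo1 at 0.956 and Utp14b, a ribosomal RNA processing factor, at 0.954. Utp14b lies within Acsl3 on the same strand, so their reads may not be separable. The median r of all genes was 0.18, and 0.449% of genes had r over 0.9. Library number went with between 60.7% and 80.4% of the variance of Cyp51, Srebf2, Mvd, Acly, Dhcr7 and Msmo1. Its share is not given here for Pcyt2, Gcat and Utp14b. These correlations rest on the same libraries, and they are given as a description.

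Srebf2 itself spanned a narrower range than any of the 7 members. It was at 59.3, 44.4 and 29.1 FPKM in R3-Cntl SFZ, 60.9, 35.9 and 42.0 FPKM in R3-cKO SFZ, 42.8, 32.4 and 26.2 FPKM in R3-Cntl DZ and 44.9, 31.4 and 23.8 FPKM in R3-cKO DZ. Its order of libraries within each group was that of Lss. Its log2 fold change between zones was -0.41 (SE 0.21, limma adjusted p = 0.181).

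Among 16 other enzymes of the route, 3 were called lower in the DZ, against 18.9% of all genes, and 0 higher, with a median log2 fold change of -0.60 beside -0.14 for all genes. With the number as a block, 12 of the 16 were called lower and 1 higher, against 27.5% and 7.17% of all genes, so this count too depends on the pairing. Nsdhl, a sterol dehydrogenase, was at -0.98 (SE 0.24, limma adjusted p = 0.0157), Mvk, mevalonate kinase, at -0.73 (SE 0.22, adjusted p = 0.0365) and Ebp, a sterol isomerase, at -0.71 (SE 0.13, adjusted p = 0.00426). Ebp and Nsdhl kept their calls under both scalings, while Mvk lost its call under both, with adjusted p-values of 0.0882 and 0.0869. Mvk also lost its call without any of 6 of the 12 libraries, where its adjusted p lay between 0.0612 and 0.0901. Of the 16 enzymes, 11 had r over 0.9 with the members' mean.

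**Figure D4:**
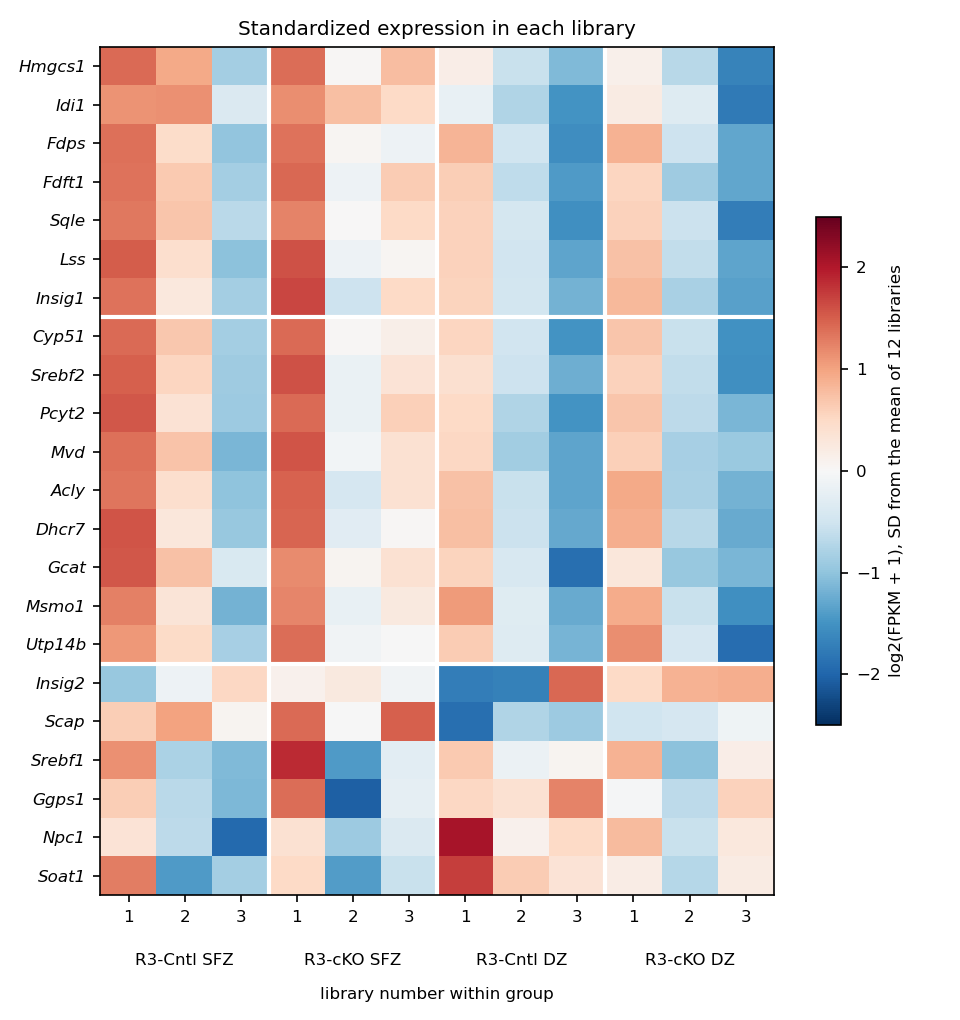
Log2(FPKM + 1) of each gene, as SDs from its mean over 12 libraries, for the 7 members (top block), 9 genes among the 10 most like them (middle block) and 6 other genes of the lists chosen after their values were seen (bottom block). Members and the middle block were high in both SFZ libraries of number 1 and low in both DZ libraries of number 3, a pattern that Insig2, Scap and Ggps1 did not show.

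Of 13 regulators, 1 was called lower in the DZ, against 18.9% of all genes, and 0 higher, with a median of -0.11. That was Scap, which escorts SREBP proteins to the Golgi, at -0.20 (SE 0.059, limma adjusted p = 0.0328). The difference was close to the shift of all genes, and quantile normalization and size factors left -0.035 and -0.043 (adjusted p = 0.755 and 0.644). Scap also lost its call without any of 7 libraries, with adjusted p-values up to 0.0859. Among the 13 regulators, 4 were called lower and 0 higher with the number as a block, against 27.5% and 7.17% of all genes. Insig2, the paralogue of Insig1, noted after its values were seen, lay between 11.8 and 17.6 FPKM in all 12 libraries, where Insig1 spanned 13.9 to 190.6 FPKM. Its r with the members' mean was -0.48.

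Of 13 genes of uptake and intracellular transport, 3 were called lower in the DZ, against 18.9% of all genes, and 0 higher, with a median of -0.18. Lipa, the lysosomal acid lipase, was at -0.98 (SE 0.19, limma adjusted p = 0.00597), Npc2, a lysosomal cholesterol carrier, at -0.70 (SE 0.21, adjusted p = 0.0318) and Osbpl2, an oxysterol-binding protein, at -0.48 (SE 0.11, adjusted p = 0.0105). Under the scalings Lipa kept its call, Npc2 lost it (adjusted p = 0.0864 and 0.104) and Osbpl2 lost it (0.114 and 0.0868). Npc2 also lost its call without any of 8 libraries, with adjusted p-values up to 0.0686. The block by number called 5 of the 13 genes lower and 0 higher, against 27.5% and 7.17% of all genes.

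In the nonsterol isoprenoid branch that Fdps feeds, 9 genes had a median r of 0.12 with the members' mean, beside 0.18 for all genes, and a highest r of 0.65. Of the 9, 2 were called between zones, against 23.2% of all genes. Pdss2, of ubiquinone synthesis, was called higher in the DZ at 0.58 (SE 0.11, limma adjusted p = 0.00462), and Fntb, a farnesyltransferase subunit, lower at -0.34 (SE 0.10, adjusted p = 0.0363). Pdss2 kept its call under both scalings and Fntb lost it (adjusted p = 0.207 and 0.182). Fntb also lost its call without any of 7 libraries, with adjusted p-values up to 0.0906. Ggps1, which extends farnesyl diphosphate and was named after its values were seen, lay between 10.9 and 15.4 FPKM while Fdps spanned 33.6 to 214.5 FPKM.

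Of 9 genes of efflux, storage and oxysterols, 7 passed the filter and 1 was called, against 18.9% of all genes called lower. It was Nceh1, a cholesterol ester hydrolase, lower at -0.49 (SE 0.11, limma adjusted p = 0.00921). Quantile normalization took its adjusted p to 0.0727 and size factors to 0.0205. None of the 7 had r over 0.9 with the members, against 0.449% of all genes.

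Markers of the cells themselves moved with zone and library, and their part in the members' values was not tested. In bulk cells, fewer cells of a type and less RNA per cell cannot be told apart. The 15 chondrocyte genes, led by Col2a1, summed to 17778, 5769 and 10769 FPKM in R3-Cntl SFZ, 15318, 8808 and 6836 in R3-cKO SFZ, 40627, 25591 and 33382 in R3-Cntl DZ and 26523, 17590 and 32684 in R3-cKO DZ. Of them, 12 were called higher and 0 lower in the DZ, against 506 and 2219 of 11765 genes, and none was at 0 in any library. The 10 fibroblast, synovium and tendon genes, led by Col1a1 or Dcn, summed to 4223, 8026 and 4587 FPKM in R3-Cntl SFZ, 4415, 3967 and 11281 in R3-cKO SFZ, 450.0, 868.2 and 2703 in R3-Cntl DZ and 450.7, 801.3 and 2044 in R3-cKO DZ, with 9 of 10 called lower in the DZ, the tenth, Dcn, at 1.19 (limma adjusted p = 0.0507), and 1 gene at 0 in R3-cKO DZ libraries 1 and 3. The 8 superficial zone genes summed to between 254.0 and 842.0 FPKM in SFZ and between 42.2 and 122.2 FPKM in DZ libraries. Abi3bp was most abundant in the SFZ, and 3 of 7 genes tested were called lower in the DZ. Over all genes 18.9% were called lower, for comparison with this count and the 9 of 10 fibroblast genes.

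Macrophage genes, 6 in the list and led by Lyz2, summed to 157.1, 126.9 and 6.90 FPKM in R3-Cntl SFZ and 121.8, 13.7 and 56.4 FPKM in R3-cKO SFZ. Among SFZ libraries they were low in R3-Cntl library 3 and R3-cKO library 2, which also had the lowest summed FPKM of the 7 members, 177.8 and 293.2, against 669.2, 420.4, 713.2 and 364.6 in the others. DZ sums of the macrophage genes were 7.33, 6.32 and 20.4 FPKM for R3-Cntl, then 6.31, 4.31 and 3.71 for R3-cKO. Of the 5 macrophage genes tested, 5 were called lower in the DZ, against 18.9% of all genes. At 0 were 1 gene in R3-cKO DZ library 2 and 2 genes in library 3. The members spread there over 409.7, 212.5 and 128.0 FPKM and 432.9, 202.2 and 120.3 FPKM. Cd68, Csf1r and the other macrophage genes were above 0 in all SFZ libraries except 1 gene in R3-Cntl library 3.

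The 8 proliferation genes, led by Pcna, summed to 185.0, 295.3 and 456.2 FPKM in R3-Cntl SFZ, 129.9, 398.8 and 83.4 in R3-cKO SFZ, 118.4, 231.6 and 86.3 in R3-Cntl DZ and 192.2, 360.3 and 77.8 in R3-cKO DZ. They were highest in the 2 SFZ libraries with the lowest member sums and, in the DZ, in library 2 of each genotype, where members were intermediate. None was at 0, and 0 of 8 were called between zones, against 23.2% of all genes. The 7 adipocyte genes, led by Lpl, summed to 108.9 FPKM in R3-Cntl SFZ library 2 and 108.7 in R3-cKO SFZ library 3, against 27.7 to 65.7 in the other 10. The 6 muscle genes, led by Acta1, summed to 69.0 FPKM in R3-Cntl SFZ library 2 and at most 12.9 elsewhere. Endothelial, erythroid and keratinocyte genes summed to at most 5.50, 0.17 and 0.20 FPKM. The 4 Y-linked genes summed to between 12.1 and 52.4 FPKM in all R3-Cntl and both number 1 R3-cKO libraries and to at most 0.06 FPKM in the other 4 R3-cKO libraries, so sex differed within and between genotypes. A comparison without the 2 SFZ libraries highest in adipocyte genes was added after seeing the data. Idi1 was there at -1.20 between zones (limma adjusted p = 0.0787), and 0 of 7 members were called, against 986 of 11550 genes. Without the 4 libraries numbered 1, also added after seeing the data, Idi1 was at -1.38 (adjusted p = 0.0672). There 0 of 7 members were called, against 862 of 11496 genes. Of the genes named from the other lists for their zone difference, only Ebp and Pdss2 were called in both of these comparisons. Nsdhl was at -0.90 and -0.99 in them (adjusted p = 0.0750 and 0.0624), and Lipa was at -0.79 in the latter (adjusted p = 0.0518).

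**Figure D5:**
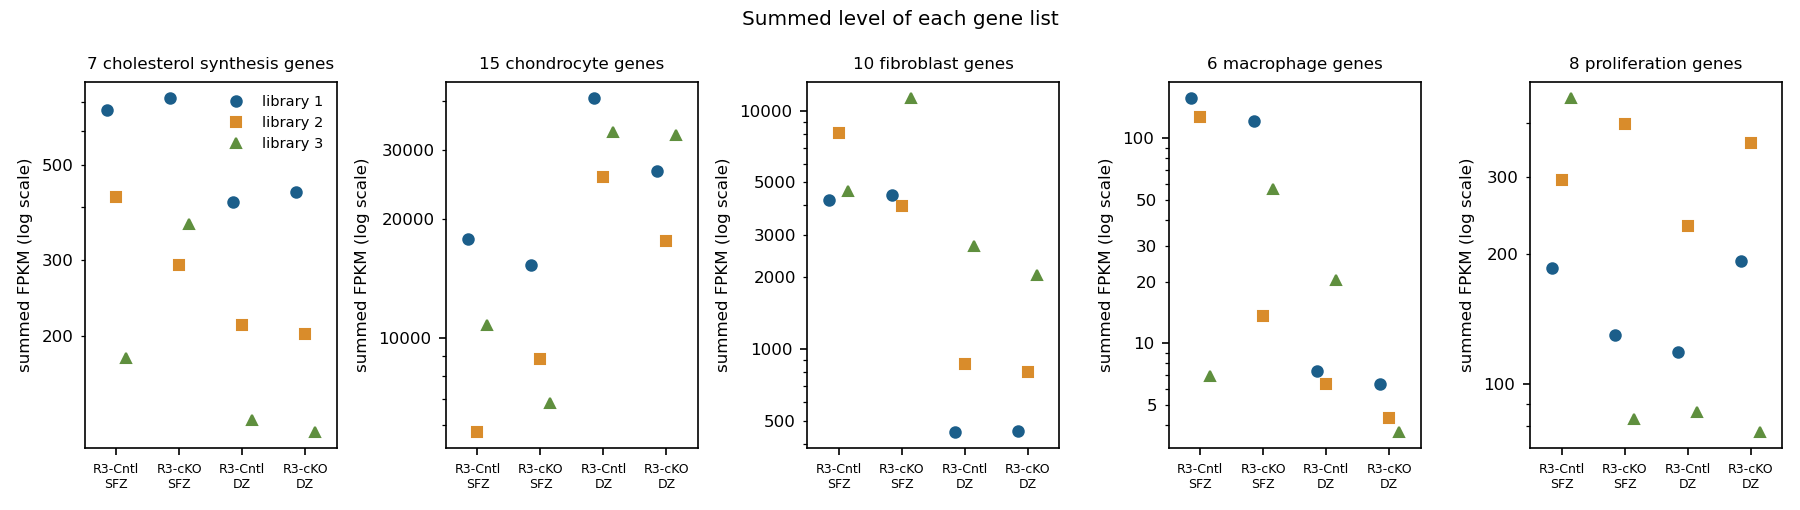
Summed FPKM on a log scale of the 7 members and of 4 marker lists in each library, with circles, squares and triangles for libraries 1, 2 and 3. Members were highest in library 1 of each group, while fibroblast genes were lower in all 6 DZ than in all 6 SFZ libraries, and chondrocyte genes were higher in the DZ except in R3-cKO DZ library 2, which lay just below R3-Cntl SFZ library 1.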

How the data were processed

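The authors sequenced RNA from SFZ and DZ cells as 100-bp paired-end reads on a BGIseq-500 and mapped them to mm9; the submitters' notes name Bowtie 0.12.2. Deposited values behave as FPKM scaled by TMM, without the quantile normalization or log2 CPM also stated, so counting error is unknown.

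Moderated limma 3.58.1 fits in R 4.3.3, with a trend on mean level, used log2(FPKM + 1) of genes reaching 1 FPKM in 3 or more libraries compared. Adjustment followed Benjamini and Hochberg over all genes tested. Fold changes of low genes are understated on this scale. The code was tested on simulated data. Permutation tests used SciPy 1.17.1.

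Same-number libraries deviated together between genotypes in the DZ (r = 0.65, 0.78 and 0.69 over 11359 genes) and between zones in R3-cKO (0.42, 0.78 and 0.65), which was taken as pairing. The rule was that all 3 same-number correlations of a comparison exceed 0.1. Pairing by this rule comes from the values, not the labels.

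Other genes named are Runx3, 9 of the 10 most like the members, those of 6 lists called between zones, and a few chosen after seeing their values. Some genes are not reported here. Members and lists were chosen with earlier results of these data known.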

Additional observations from a re-analysis of the deposited data

How the results depend on the processing

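Zone estimates of the 7 members stayed negative under every alternative. The alternatives re-fit the same 12 libraries for genes that vary together, and the block leaves an estimate unchanged. They are no separate evidence, and how often other genes kept their sign was not computed. The exact counts of calls moved more. Between zones in R3-Cntl, 140 genes were called, against 0 with no filter, 8 at a mean of at least 10 FPKM, 88 and 29 with pseudocounts of 0.1 and 5, 1 with quantile normalization, 17 with size factors, 798 in 1 model of all libraries and 0 to 505 with a library left out. In R3-cKO, 2 genes were called, against 7, 0, 1 and 1 for the same filters and pseudocounts, 165 in 1 model and 0 to 5 with a library left out. Between zones in both genotypes, 2725 genes were called, against 1162 at a mean of at least 10 FPKM, where fewer genes were tested, 862 without libraries numbered 1, 986 without the 2 SFZ libraries highest in adipocyte genes, and 1624 to 2899 with a library left out. Members called were then 0 and 0 for the added comparisons and 0 to 2 with a library left out. With the replicate block, the R3-cKO count was 352. In R3-Cntl and between genotypes in the SFZ, pairing of same-number libraries was not detected (r = 0.58, 0.11 and -0.15, and 0.79, -0.094 and -0.42). Not every library correlated best with its own number, and which number is which mouse is not stated. The block there called 831 genes (7.33%) and 2 of 7 members, Idi1 and Sqle, between zones in R3-Cntl. In both genotypes it called 4083 genes (34.7%) and 7 of 7 members (adjusted p from 0.00072 to 0.0254), and genotype and number together, added after seeing the data, called 3965 genes (33.7%) and 7 of 7 members. With the number as a block over both genotypes, calls lower and higher were 12 and 1 of 16 other synthesis enzymes, 4 and 0 of 13 regulators, 5 and 0 of 13 uptake and transport genes, 1 and 0 of 7 efflux genes, 1 and 1 of 9 isoprenoid genes and 5 and 2 of 12 fatty acid genes, against 27.5% and 7.17% of all genes. The block changed no other call between genotypes. Genotype estimates changed sign with a library left out. In the SFZ they ranged from -0.33 to 0.50 for Hmgcs1, -0.28 to 0.37 for Idi1, -0.22 to 0.46 for Fdft1, -0.43 to 0.63 for Fdps, -0.27 to 0.37 for Sqle, -0.34 to 0.62 for Lss and -0.32 to 1.04 for Insig1. In the DZ they ranged from -0.51 to 0.15, -0.20 to 0.66, -0.38 to 0.29, -0.45 to 0.64, -0.43 to 0.31, -0.42 to 0.39 and -0.88 to 0.45 in the same order of genes. Lss in the DZ was also -0.044 with quantile normalization and -0.034 with size factors, and had no value at a mean of at least 10 FPKM. The cause of these moves was not tested. Of the 10 genes most like the members, 8 were shared after quantile normalization and 7 with group means removed. Alternatives that need counts were not run.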

Other observations

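Fatty acid synthesis genes, which share the SREBP regulators, differed by library number to very different degrees. Of 12 genes, 2 were called lower in the DZ, against 18.9% of all genes, and 0 higher, with a median log2 fold change of -0.21 beside -0.14 for all genes. Acss2, which makes acetyl-CoA from acetate, was at -1.25 (SE 0.38, limma adjusted p = 0.0364), and Elovl5, a fatty acid elongase, at -0.55 (SE 0.13, adjusted p = 0.0140). Elovl5 kept its call under both scalings. It lost its call without the libraries numbered 1, where it was at -0.48 (adjusted p = 0.0682). Its call was also lost without the 2 SFZ libraries highest in adipocyte genes, where it was at -0.57 (adjusted p = 0.0571). Acss2 lost its call under both scalings (adjusted p = 0.0864 and 0.0636) and also lost it without any of 8 libraries (up to 0.0833). Of the 12 genes, 5 were called lower and 2 higher with the number as a block, against 27.5% and 7.17% of all genes. Library number took a median of 64.2% of the variance of the 12 genes, with a range of 2.06% to 88.0%, against medians of 58.5% for the 7 cholesterol genes and 30.4% for all genes.

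Scd1, the stearoyl-CoA desaturase, was named after its values were seen. It was at 234.5, 63.4 and 31.0 FPKM in R3-Cntl SFZ, 361.0, 42.5 and 51.1 FPKM in R3-cKO SFZ, 128.8, 59.1 and 33.0 FPKM in R3-Cntl DZ and 155.7, 31.8 and 19.6 FPKM in R3-cKO DZ. Library 1 was highest in every group, as for 6 of the 7 cholesterol genes, and its r with their mean was 0.89. Srebf1, whose product drives fatty acid genes, was at 117.3, 41.2 and 34.6 FPKM in R3-Cntl SFZ and at 172.1, 29.1 and 54.7 FPKM in R3-cKO SFZ. In the DZ Srebf1 was at 89.4, 58.2 and 65.5 FPKM in R3-Cntl and at 100.6, 36.3 and 69.1 FPKM in R3-cKO, and its r with the members' mean was 0.52.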
